A study of Mus musculus with 18 samples.

Results

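The expression of 10 genes of eosinophils and mast cells was followed in the colon of mice with colitis-associated cancer (CAC). They were the 10 rows, of 47729 genes in the deposited table, whose identifiers map to 5 eosinophil symbols (Il5ra, Ccr3, Siglecf, Epx and Prg2) and 5 mast cell symbols (Mcpt1, Mcpt2, Cpa3, Cma1 and Kit). RNA-Seq libraries of 9 C57BL/6 mice fell into 3 groups of 3. Naive WT mice (mice 1 to 3) were the untreated controls. WT CAC mice (mice 4 to 6) were WT mice given 1 dose of azoxymethane (AOM, 10 mg/kg), a carcinogen, and 3 cycles of 2.5% dextran sulfate sodium (DSS), which injures the colon epithelium. Cldn2TG CAC mice (mice 7 to 9) were Villin-Cldn2TG mice given AOM and DSS in the same way. In these mice the villin promoter drives claudin-2 in the epithelium of the gut, not in the leukocytes whose genes are described here. No naive transgenic group was analysed here, so an effect of the transgene alone and one on the treated colon cannot be told apart.

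Eosinophils and mast cells are tissue leukocytes of type 2 immunity. Eosinophils depend on IL-5, which acts through the receptor chain made from Il5ra, and they follow eotaxins through Ccr3; they store the peroxidase Epx and the major basic protein Prg2 in their granules and carry the lectin Siglecf. Mast cells depend on stem cell factor, which acts through the receptor tyrosine kinase Kit, and store proteases in their granules. In the mouse, mucosal mast cells, which lie in the epithelium and lamina propria, make the chymases Mcpt1 and Mcpt2, while connective tissue mast cells, which lie deeper in the wall, make the chymase Cma1 (mast cell protease 5) and Mcpt4. Carboxypeptidase A, from Cpa3, is best known from the connective tissue kind.

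The 2 kinds of chymase lie in 1 gene cluster on chromosome 14 (GRCm38). Cma1 was at chr14:55941453-55944661 on the minus strand, Mcpt1 at chr14:56017964-56020391 and Mcpt2 at chr14:56042123-56044634, both on the plus strand. The coding sequences of Mcpt1 (738 bases) and Mcpt2 (732 bases) were 82.1% identical over 730 aligned bases, and Cma1 (780 bases) was 65.3% identical to Mcpt1 over 734. The first 60 coding bases, which encode the start of the protein, are shown so that the genes can be compared base by base. Capitals mark bases that differ from Mcpt1.
Mcpt1: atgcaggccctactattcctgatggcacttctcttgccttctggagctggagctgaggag
Mcpt2: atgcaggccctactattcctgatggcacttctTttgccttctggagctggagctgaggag
Mcpt4: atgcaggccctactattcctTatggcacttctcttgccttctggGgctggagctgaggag
Mcpt2 differed from Mcpt1 at 1 of these 60 bases and Mcpt4 at 2, but the longest run of coding bases that Mcpt1 and Mcpt2 share was 49. None of the 965 windows of 50 bases in the GENCODE M21 transcripts of Mcpt1, and none of the 1012 of Mcpt2, occurred in a transcript of another gene. Of the windows of Cma1, 5.38% also occurred in the transcript of another annotated gene, Gm48934. The read length is not given in the sources used here, so how far shorter reads could be split between these genes is unknown.

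Il5ra was the eosinophil member called in WT CAC mice, and Mcpt1 and Mcpt2 were the mast cell members called in the same direction. All 3 were higher in every WT CAC mouse than in every other mouse. Kit went the other way, and neither Cma1 nor Siglecf passed the test in a comparison with WT CAC mice. The granule protein gene Epx and the eotaxin receptor gene Ccr3 were at or near 0 in every group. Levels are given as CPM, the counts of a gene scaled to the same total in every mouse, with normalization factors over the 9 mice. At the depth of these libraries, 14142711 to 22262546 counts a mouse, 3 counts, the number that a count of 0 still allows, correspond to 0.135 to 0.212 CPM, counting error only.

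**Figure D1:**
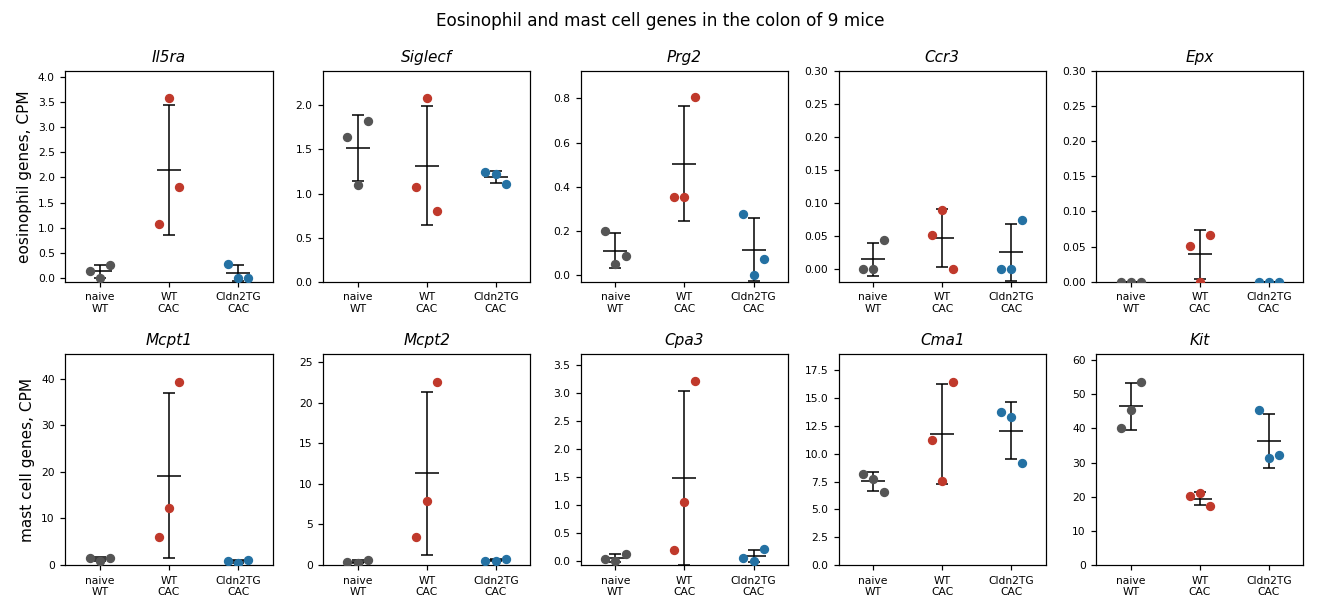
CPM of the 5 eosinophil genes (top) and the 5 mast cell genes (bottom) in each mouse (points), with the mean and SD of each group of 3 (bars); each panel has its own axis. Mcpt1, Mcpt2 and Il5ra are highest in the 3 WT CAC mice, Kit is lowest there, and Epx and Ccr3 stay under 0.1 CPM.

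The largest change among the eosinophil genes was that of Il5ra (chr6:106710357-106749037, minus strand). It was at 0.149, 0 and 0.261 CPM in naive WT mice, at 1.07, 3.58 and 1.81 CPM in WT CAC mice, and at 0.276, 0 and 0 CPM in Cldn2TG CAC mice. The lowest WT CAC mouse thus lay above the highest mouse of both other groups. Il5ra rose by 3.91 ± 0.77 on the log2 scale (SE, n = 3 against 3) in WT CAC against naive WT (adjusted p = 0.0198, edgeR) and fell by 4.58 ± 0.93 in Cldn2TG CAC against WT CAC (adjusted p = 0.022, edgeR). These changes rest on 142 counts in all: 9, 129 and 4 in the 3 groups in turn. Il5ra thus passed the filter through WT CAC mice alone and had to differ there. Fitted with no filter, it was called in both comparisons (3.87 ± 0.72 and -4.54 ± 0.90, adjusted p = 0.00674 and 0.0119, edgeR). Without mouse 5, the highest, the adjusted p was 0.0508 for the first comparison and 0.0641 for the second (edgeR). Without any 1 of the naive WT mice it was 0.0581 to 0.0716, and without Cldn2TG CAC mouse 8 or mouse 9 it was 0.0961 and 0.1 (edgeR). Without Cldn2TG CAC mouse 7 the fitted log2 fold change was -8.29 (adjusted p = 0.0353, edgeR), a value with no lower limit from the data, since the 2 mice left had no count. Between Cldn2TG CAC and naive WT mice Il5ra was not tested, with 4 against 9 counts, a ratio of 0.545 (95% interval 0.123 to 1.95, counting error only).

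Prg2 (chr2:84980461-84983632, plus strand), which encodes the major basic protein, had 39 counts in the 9 mice and stayed under the filter of the test. It was at 0.199, 0.0502 and 0.0869 CPM in naive WT mice, at 0.356, 0.354 and 0.804 CPM in WT CAC mice, and at 0.276, 0 and 0.0739 CPM in Cldn2TG CAC mice. The WT CAC mice were again above all others. The summed counts were 27 in WT CAC and 7 in naive WT mice, a ratio of 4.28 (95% interval 1.82 to 11.6), and the ratio of WT CAC to Cldn2TG CAC mice was 4.89 (95% interval 1.86 to 16.3). These intervals cover counting error only, not the spread between mice. Fitted without a filter, Prg2 was not called (log2 fold changes of 2.07 ± 0.70 and -2.11 ± 0.84, adjusted p = 0.0735 and 0.166, edgeR).

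Siglecf (chr7:43351341-43359531, plus strand) had no such pattern. It was at 1.64, 1.1 and 1.82 CPM in naive WT mice, at 1.07, 2.08 and 0.804 CPM in WT CAC mice, and at 1.24, 1.22 and 1.11 CPM in Cldn2TG CAC mice, and the 3 groups overlapped. Its log2 fold change was -0.17 ± 0.41 in WT CAC against naive WT, -0.19 ± 0.41 in Cldn2TG CAC against WT CAC and -0.35 ± 0.31 in Cldn2TG CAC against naive WT (adjusted p = 0.811, 0.86 and 0.507, edgeR). Siglecf is also known from tuft cells, the chemosensory cells of the gut epithelium. Of 9 tuft cell markers tested, 2 fell in WT CAC mice (Dclk1, with a log2 fold change of -1.41 ± 0.24, and Trpm5, with -1.25 ± 0.24) and 0 rose. In Cldn2TG CAC against WT CAC 1 of 8 fell (Ptgs1, with -1.60 ± 0.23), and against naive WT 2 of 8 fell in Cldn2TG CAC mice (Ptgs1 and Dclk1), of which Dclk1 kept its call without naive WT mouse 1. Their summed level was 44.9 to 63.8 CPM in naive WT, 37.6 to 84.0 in WT CAC and 28.7 to 37.1 in Cldn2TG CAC mice. Avil, the most counted of them, did not pass the test, at 5.47 to 9.34 CPM in naive WT mice and 6.76, 24.1 and 55.1 CPM in WT CAC mice (2.08 ± 0.70 on the log2 scale, adjusted p = 0.0924, edgeR). Without Avil the sums were 39.4 to 54.5 CPM in naive WT, 28.9 to 32.7 in WT CAC and 23.6 to 31.3 in Cldn2TG CAC mice. The part of tuft cells in the level of Siglecf was not tested.

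Ccr3 (chr9:124021971-124031689, plus strand) had 5 counts in the 9 mice, 1, 3 and 1 by group, and Epx (chr11:87864000-87875536, minus strand) had 2, both in WT CAC mice. No mouse was above 0.0884 CPM for Ccr3 or 0.067 CPM for Epx, so both were within what a count of 0 allows. A difference between the groups was not detectable for either at this depth. Among the other eosinophil granule genes, the ribonuclease genes Ear1 and Ear6 had no count in any mouse, Ear2 had 1, 5 and 1 counts by group and Prg3 had 0, 2 and 0.

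Of the mast cell members, Mcpt1 and Mcpt2 rose past the threshold in WT CAC mice. Mcpt1 was at 1.44, 0.854 and 1.52 CPM in naive WT mice, at 5.99, 12.2 and 39.4 CPM in WT CAC mice, and at 0.896, 0.405 and 1.11 CPM in Cldn2TG CAC mice. The WT CAC mice thus differed 6.57-fold among themselves, and the lowest of them was still above all other mice. Mcpt1 rose by 3.93 ± 0.75 on the log2 scale in WT CAC against naive WT (15.2-fold, adjusted p = 0.0209, edgeR) and fell by 4.63 ± 0.83 in Cldn2TG CAC against WT CAC (24.8-fold lower, adjusted p = 0.0199, edgeR).

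Mcpt2 was at 0.348, 0.301 and 0.608 CPM in naive WT mice, at 3.40, 7.92 and 22.6 CPM in WT CAC mice, and at 0.551, 0.507 and 0.739 CPM in Cldn2TG CAC mice. Its 3 WT CAC mice stood in the same order as for Mcpt1, with mouse 6 the highest and mouse 4 the lowest. Mcpt2 rose by 4.74 ± 0.79 on the log2 scale in WT CAC against naive WT (adjusted p = 0.0157, edgeR) and fell by 4.25 ± 0.76 in Cldn2TG CAC against WT CAC (adjusted p = 0.0177, edgeR). Between Cldn2TG CAC and naive WT mice, Mcpt1 differed by -0.70 ± 0.42 and Mcpt2 by 0.48 ± 0.44 on the log2 scale (adjusted p = 0.314 and 0.53, edgeR), and neither was called.

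Mouse 6 set much of the size of these changes. Without it, Mcpt1 rose by 2.85 ± 0.40 and Mcpt2 by 3.74 ± 0.49 on the log2 scale in WT CAC against naive WT (adjusted p = 0.015 and 0.0125, edgeR), and both still fell in Cldn2TG CAC against WT CAC, with log2 fold changes of -3.53 ± 0.47 and -3.24 ± 0.45 (adjusted p = 0.0109 and 0.0122, edgeR). The calls were lost on leaving out any 1 of naive WT mice 1, 2 and 3 (adjusted p = 0.0575 to 0.0935, edgeR) or any 1 of Cldn2TG CAC mice 7, 8 and 9 (adjusted p = 0.0838 to 0.1, edgeR), with fold changes close to those above. Mcpt2 passed the filter through WT CAC mice alone in both comparisons with them, with 1 naive WT and 1 Cldn2TG CAC mouse above its minimum of 0.505 and 0.587 CPM, and Mcpt1 did so in Cldn2TG CAC against WT CAC, with 2 Cldn2TG CAC mice above it. With all mice and no filter on low counts, Mcpt1 was not called in either comparison (adjusted p = 0.0861 and 0.102, edgeR), and Mcpt2 was called in the first (0.0433) but not in the second (0.0683).

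Cpa3 (chr3:20215620-20242181, minus strand) went with the mucosal chymases at a far lower level. It was at 0.0498, 0 and 0.13 CPM in naive WT mice, at 0.203, 1.06 and 3.21 CPM in WT CAC mice, and at 0.0689, 0 and 0.222 CPM in Cldn2TG CAC mice. Mice 5 and 6 stood above all others, while mouse 4 lay below Cldn2TG CAC mouse 9, so WT CAC and Cldn2TG CAC overlapped. Its counts were 4, 76 and 4 by group, which the filter of the test left out. The ratio of summed counts was 21.1 (95% interval 7.91 to 79.4) for WT CAC to naive WT and 17.2 (95% interval 6.45 to 64.8) for WT CAC to Cldn2TG CAC, counting error only. Fitted without a filter, Cpa3 was not called (4.39 ± 1.21 and -3.97 ± 1.30 on the log2 scale, adjusted p = 0.0693 and 0.164, edgeR). With the filter, Cpa3 entered the test once certain mice were left out, through WT CAC mice alone, so that it had to differ. Without mouse 4, the lowest of the WT CAC mice, it was called in both comparisons (4.94 ± 0.81 and -4.51 ± 0.85, adjusted p = 0.005 and 0.00577, edgeR), and without any 1 of the naive WT or Cldn2TG CAC mice it was not (adjusted p = 0.104 to 0.244, edgeR).

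Cma1, known as the connective tissue chymase, was already well above the mucosal chymases in naive WT mice. Mcpt4 and Cpa3, other genes of that kind of mast cell, were near 0 there, at means of 0.0602 and 0.06 CPM. The cells that make Cma1 here were not tested. Cma1 was at 8.21, 7.78 and 6.6 CPM in naive WT mice, at 11.2, 7.56 and 16.5 CPM in WT CAC mice, and at 13.8, 13.3 and 9.16 CPM in Cldn2TG CAC mice. WT CAC mice overlapped with both other groups. Cma1 differed by 0.66 ± 0.29 in WT CAC against naive WT and by 0.03 ± 0.30 in Cldn2TG CAC against WT CAC on the log2 scale (adjusted p = 0.152 and 0.976, edgeR). In Cldn2TG CAC against naive WT, where the 2 groups did not overlap, it rose by 0.69 ± 0.19 (adjusted p = 0.0445, edgeR). That call was lost in 10 of 15 alternatives, among them library size only as normalization (adjusted p = 0.0875), each lane alone (0.0732 and 0.0599) and the leaving out of any 1 of mice 1, 2, 3, 7 and 8 (0.0659 to 0.162, all edgeR).

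Per kilobase of gene, the order of the mast cell proteases differed between groups. On the RPKM scale, which divides CPM by the length of the gene, naive WT mice had 7.01 ± 0.776 of Cma1, 1.24 ± 0.355 of Mcpt1 and 0.432 ± 0.17 of Mcpt2 (SD, n = 3). WT CAC mice had 10.9 ± 4.17 of Cma1, 18.7 ± 17.3 of Mcpt1 and 11.7 ± 10.4 of Mcpt2, an order whose neighbours do not differ beyond their spread. In Cldn2TG CAC mice Cma1 was again first, at 11.3 ± 2.38 RPKM, above Mcpt1 at 0.781 ± 0.351 and Mcpt2 at 0.617 ± 0.127. Within each mouse, the RPKM of Mcpt1 and Mcpt2 together was 0.231, 0.157 and 0.342 times that of Cma1 in naive WT mice, 0.897, 2.84 and 4.02 times in WT CAC mice and 0.112, 0.0741 and 0.216 times in Cldn2TG CAC mice. The ratio was thus higher in every WT CAC mouse than in any other mouse, and the ranges of naive WT and Cldn2TG CAC mice overlapped. It compares genes and not kinds of mast cell, as the cells that make Cma1 were not tested.

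**Figure D2:**
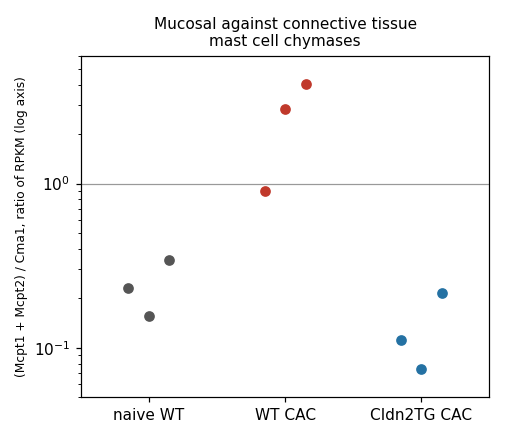
Ratio of the summed RPKM of the mucosal chymases Mcpt1 and Mcpt2 to the RPKM of the connective tissue chymase Cma1, on a log axis, 1 point a mouse; the line marks a ratio of 1. WT CAC mice lie at 0.897 to 4.02, naive WT mice at 0.157 to 0.342 and Cldn2TG CAC mice at 0.0741 to 0.216. The ratio compares genes, as the cells that make Cma1 were not tested.

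Kit (chr5:75574916-75656722, plus strand), the receptor on which mast cells depend, moved against the mucosal chymases. It was at 40.2, 45.3 and 53.7 CPM in naive WT mice, at 20.1, 21.0 and 17.3 CPM in WT CAC mice, and at 45.4, 31.4 and 32.1 CPM in Cldn2TG CAC mice. All WT CAC mice were thus below all other mice. Kit fell by 1.23 ± 0.14 on the log2 scale in WT CAC against naive WT (2.34-fold lower, adjusted p = 0.00554, edgeR), a call kept in all 15 alternatives. Without naive WT mouse 1 it fell by 1.32 ± 0.15 (adjusted p = 0.0177, edgeR). It was 0.88 ± 0.18 higher on the log2 scale in Cldn2TG CAC than in WT CAC mice (1.83-fold, adjusted p = 0.0196, edgeR). That second call was lost on leaving out any 1 of mice 5, 6, 7, 8 and 9 (adjusted p = 0.0581 to 0.0669, edgeR). Against naive WT, Kit in Cldn2TG CAC mice differed by -0.35 ± 0.16 on the log2 scale (adjusted p = 0.204, edgeR), with the groups overlapping. Without mouse 7 it fell by 0.55 ± 0.13 (adjusted p = 0.0341, edgeR).

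**Figure D3:**
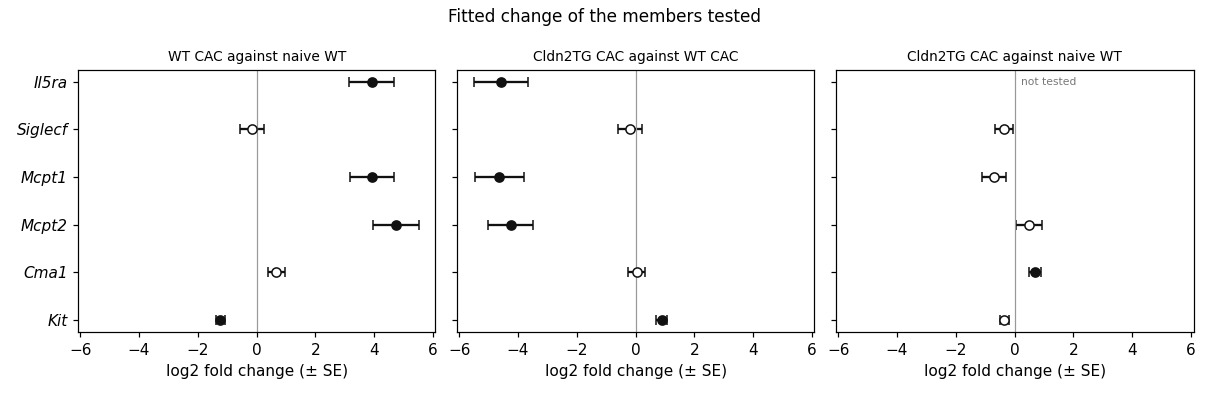
Log2 fold change (± SE) of the members tested, in the 3 comparisons of 3 mice against 3; filled points passed an adjusted p of 0.05 in edgeR and open points did not. Il5ra, Mcpt1 and Mcpt2 lie right of 0 in WT CAC against naive WT and left of 0 in Cldn2TG CAC against WT CAC, Kit lies on the opposite side in both, and Il5ra was not tested in Cldn2TG CAC against naive WT.

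Of the 10 members, 6 had enough counts for the test of WT CAC against naive WT, and 3 rose and 1 fell. Among all 15437 genes tested there, 8.04% were called higher and 6.92% lower. In Cldn2TG CAC against WT CAC, 6 members were tested, of which 1 was higher and 3 lower, beside 2.19% and 7.35% of all 14888 genes tested. In Cldn2TG CAC against naive WT, 5 were tested and 1 was higher, beside 3.92% higher and 6.07% lower of 15013 genes. Groups of mice that did not overlap were common: 38.0% of all genes tested in WT CAC against naive WT, 28.5% in Cldn2TG CAC against WT CAC and 31.2% in Cldn2TG CAC against naive WT had none. The 3 comparisons share their groups of mice, and the filter on low counts decided part of these calls. Against naive WT, Il5ra and Mcpt2 passed it through the WT CAC mice alone, as did Il5ra, Mcpt1 and Mcpt2 in Cldn2TG CAC against WT CAC. The filter thus favoured a difference for these genes, so these counts are no support for a change of the members together. For a single value the exact permutation test of 3 mice against 3 cannot go below p = 0.1, which is what Il5ra, Mcpt1, Mcpt2 and Kit reached in both comparisons with WT CAC.

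The rest of the mast cell programme was read from 2 further lists. Of 8 other mast cell protease genes, 2 passed the filter in the comparison of WT CAC with naive WT and 1 of them rose, the tryptase gene Tpsb2, by 2.55 ± 0.71 on the log2 scale (adjusted p = 0.0482, edgeR). Tpsb2 was at 0.199, 0.0502 and 0.434 CPM in naive WT mice, at 0.762, 0.973 and 2.48 CPM in WT CAC mice and at 0.0689, 0.203 and 0.739 CPM in Cldn2TG CAC mice; reads of this gene and its paralog Tpsab1 may be split in part. It passed the filter through WT CAC mice alone, and its call was lost without naive WT mouse 1. The transmembrane tryptase gene Tpsg1 was at 22.4 to 41.0 CPM in naive WT, 28.6 to 30.7 CPM in WT CAC and 23.1 to 31.7 CPM in Cldn2TG CAC mice and was not called.

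Of 16 other mast cell genes, 11 were tested in WT CAC against naive WT, where 4 rose and 1 fell, with a median log2 fold change of 0.32 beside 0.02 for all genes tested. Those that rose were Srgn (the granule proteoglycan serglycin) by 2.60 ± 0.27, Hdc (histidine decarboxylase, which makes histamine) by 2.83 ± 0.77, Fcer1g (the shared gamma chain of Fc receptors) by 2.11 ± 0.40 and Cd200r3 by 2.26 ± 0.50 on the log2 scale. Rgs13 fell by 1.12 ± 0.29. Its means were 4.64, 2.1 and 3.04 CPM by group, in the same order of groups as the tuft cell marker Dclk1 (15.1, 5.57 and 8.18 CPM). The cells that make Rgs13 here were not tested. Of these 5 calls, that of Srgn was kept without naive WT mouse 1, and Hdc and Cd200r3 passed the filter through WT CAC mice alone. In Cldn2TG CAC against WT CAC, 2 of 11 fell and 0 rose: Srgn fell by 3.15 ± 0.27 and Fcer1g fell by 2.78 ± 0.40. Hdc differed by -2.31 ± 0.64 there and was not called (adjusted p = 0.0576, edgeR). Against naive WT, 1 of 9 rose in Cldn2TG CAC mice, the prostaglandin D synthase gene Hpgds, by 0.82 ± 0.23, a call lost without naive WT mouse 1. Ndst2, a heparin sulfotransferase gene and the most counted of the list, was at 17.2 to 30.6 CPM over all 9 mice and was not called. Srgn and Fcer1g are made by many leukocytes.

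The alpha and beta chains of the high-affinity IgE receptor, which mark mast cells and basophils more narrowly, were chosen after their values were seen. Fcer1a had 2, 25 and 1 counts by group and Ms4a2 had 0, 21 and 0. Ms4a2 was seen in all 3 WT CAC mice and in none of the others, at 0.102 to 0.603 CPM. The receptor genes Mrgprb1 and Mrgprb2, the latter a receptor of connective tissue mast cells, and the protease genes Prss34 and Ctsg had no count in any mouse.

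Of 10 other eosinophil genes, 6 were tested in WT CAC against naive WT and 3 rose, with a median log2 fold change of 1.81. These were Il1rl1 (the IL-33 receptor) by 3.46 ± 0.89, Alox15 (a lipoxygenase) by 3.00 ± 0.47 and Csf2rb2 by 1.88 ± 0.43 on the log2 scale. Without naive WT mouse 1, Alox15 was the 1 gene of 6 called. In Cldn2TG CAC against WT CAC, 4 of 6 fell: Il1rl1 (log2 fold change -3.91 ± 0.88), Csf2rb (-2.33 ± 0.51), Csf2rb2 (-2.27 ± 0.44) and Csf2ra (-0.60 ± 0.14). There Il1rl1 and Csf2rb2 passed the filter through WT CAC mice alone. Csf2rb encodes the chain that pairs with Il5ra in the IL-5 receptor, and it was at 3.53, 2.06 and 1.56 CPM in naive WT, 2.79, 11.5 and 9.17 CPM in WT CAC and 2, 1.57 and 1.11 CPM in Cldn2TG CAC mice. WT CAC mouse 4 lay within the naive range for this gene, and the rise against naive WT was not called (1.73 ± 0.53, adjusted p = 0.0669, edgeR). Reads of Csf2rb and its close paralog Csf2rb2 could be split between the 2. Alox15 was also called above naive WT in Cldn2TG CAC mice, by 1.72 ± 0.43 (adjusted p = 0.0365, edgeR), the 1 gene of 6 called there, and lost that call without naive WT mouse 1. None of these genes is particular to eosinophils, and mast cells, macrophages or epithelium make several of them.

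No eosinophil ligand passed the test, and of the mast cell factors Il9r, Tgfb1 and Il18 did in at least 1 comparison. Il5 had 4 counts in the 9 mice and Il9, the growth factor of mucosal mast cells, had 0, while its receptor Il9r rose by 2.41 ± 0.60 in WT CAC against naive WT and fell by 2.05 ± 0.44 in Cldn2TG CAC against WT CAC (adjusted p = 0.035 and 0.0235, edgeR). Il9r passed the filter through WT CAC mice alone, with 15, 72 and 15 counts by group. Of 10 eosinophil ligands, 3 were tested in each comparison and 0 were called, which were Ccl11, Ccl5 and Il33. The eotaxin gene Ccl11 was at 0.697 to 0.738 CPM in naive WT, 0.268 to 2.30 in WT CAC and 0.482 to 1.33 in Cldn2TG CAC mice. Il33 was at 3.67 to 5.12 CPM in naive WT mice, at 3.40, 12 and 12.5 CPM in WT CAC mice and at 3.38 to 4.76 CPM in Cldn2TG CAC mice, and Ccl5 at 1.1 to 4.6, 4.47 to 7.3 and 1.65 to 4.43 CPM.

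Stem cell factor, from Kitl, is the ligand of Kit and was at 112 to 115 CPM in naive WT, 78.6 to 115 in WT CAC and 101 to 120 in Cldn2TG CAC mice. It was not called in any comparison. Of the other mast cell factors, Tgfb1, which drives the mucosal phenotype, fell by 0.76 ± 0.17 on the log2 scale in Cldn2TG CAC against WT CAC (adjusted p = 0.0273, edgeR) and differed by 0.59 ± 0.18 in WT CAC against naive WT (adjusted p = 0.0635, edgeR). Il18 was 0.58 ± 0.15 higher in Cldn2TG CAC than in WT CAC mice (adjusted p = 0.049, edgeR).

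In whole colon, fewer cells of a type and less RNA per cell cannot be told apart, and pan-leukocyte markers moved in the same comparisons. All 6 pan-leukocyte markers rose in WT CAC against naive WT, with a median of 1.91 on the log2 scale, and all 6 fell in Cldn2TG CAC against WT CAC, with a median of -2.25. Their summed level was 22.8 to 61.6 CPM in naive WT, 130 to 171 in WT CAC and 24.6 to 39.7 in Cldn2TG CAC mice. Coro1a rose by 2.39 ± 0.39 and Laptm5 by 1.60 ± 0.34 in WT CAC mice. Without naive WT mouse 1, 4 of the 6 were called higher there.

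B cells and plasma cells are other sources of Il5ra in the mouse. Of 6 of their markers tested, 2 rose in WT CAC against naive WT (Jchain by 2.61 ± 0.44 and Mzb1 by 2.18 ± 0.29) and 3 fell in Cldn2TG CAC against WT CAC (these and Cd79a, with log2 fold changes of -2.72 ± 0.61, -2.30 ± 0.49 and -1.94 ± 0.48; Mzb1 passed the filter there through WT CAC mice alone). Without naive WT mouse 1, which had 142 counts of Cd79a against 12 and 22 in the other naive WT mice, 5 of 7 were called higher in WT CAC mice, Mzb1 among them and Jchain not. Cd79b, the next most counted of the list, was not called with all mice. The sum of the list was 41.4 to 95.6 CPM in naive WT, 236 to 461 in WT CAC and 39.7 to 108 in Cldn2TG CAC mice. Of 7 neutrophil markers, 4 were tested and called higher in WT CAC against naive WT, but S100a8, S100a9 and Csf3r passed the filter through WT CAC mice alone and had to differ. S100a9 had 5, 0 and 7 counts in naive WT, 15, 500 and 178 in WT CAC and 2, 3 and 2 in Cldn2TG CAC mice. Ly6g rose by 0.82 ± 0.17 and was the 1 marker of 5 called without naive WT mouse 1. It did not follow S100a9 in Cldn2TG CAC mice, where it differed by 0.04 ± 0.12 from WT CAC (adjusted p = 0.902, edgeR) and was 0.87 ± 0.15 higher than in naive WT mice (adjusted p = 0.00881, edgeR). Mpo and Elane were at or near 0 in every mouse (at most 0.067 and 0.0507 CPM). The part of these cells in the level of Il5ra was not tested.

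Kit also marks the interstitial cells of Cajal, the pacemaker cells of the muscle coat. Of 9 markers of these cells and of smooth muscle, 0 were called in either direction in WT CAC against naive WT, with a median of -0.79, and 0 in Cldn2TG CAC against WT CAC, with a median of -0.48. Against naive WT, 3 fell in Cldn2TG CAC mice (Etv1 by a log2 fold change of -1.38 ± 0.33, Myh11 of -1.1 ± 0.22 and Acta2 of -1.43 ± 0.22), of which Acta2 kept its call without naive WT mouse 1. The list summed to 2527 to 4051 CPM in naive WT, 1448 to 2963 in WT CAC and 1464 to 1922 in Cldn2TG CAC mice. Its 2 most counted genes differed in pattern. Thbs4 was lowest in WT CAC mice in mean (559 to 635, 277 to 509 and 509 to 555 CPM by group, log2 fold changes of -0.54 ± 0.21 and 0.38 ± 0.21), with WT CAC and Cldn2TG CAC mice overlapping, and Des was lowest in mean in Cldn2TG CAC mice (342 to 781, 165 to 555 and 167 to 252 CPM). Neither was called. Ano1, a channel gene of interstitial cells of Cajal, differed by -0.03 ± 0.23 in WT CAC against naive WT and by -0.06 ± 0.23 in Cldn2TG CAC against WT CAC, at means of 294, 282 and 275 CPM by group, and was not called. Ano1 was chosen after its values were seen. Etv1, at means of 2.38, 1.32 and 0.903 CPM by group, differed by -0.82 ± 0.36 in WT CAC against naive WT. That difference was not called (adjusted p = 0.16, edgeR). Epithelium markers (6, Krt8 and Epcam the most counted) had 0 calls in both comparisons with WT CAC, and Krt8 and Cldn7 rose in Cldn2TG CAC against naive WT, by 0.43 ± 0.11 and 0.31 ± 0.09, calls lost without naive WT mouse 1. The part of these cells in the level of Kit was not tested.

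**Figure D4:**
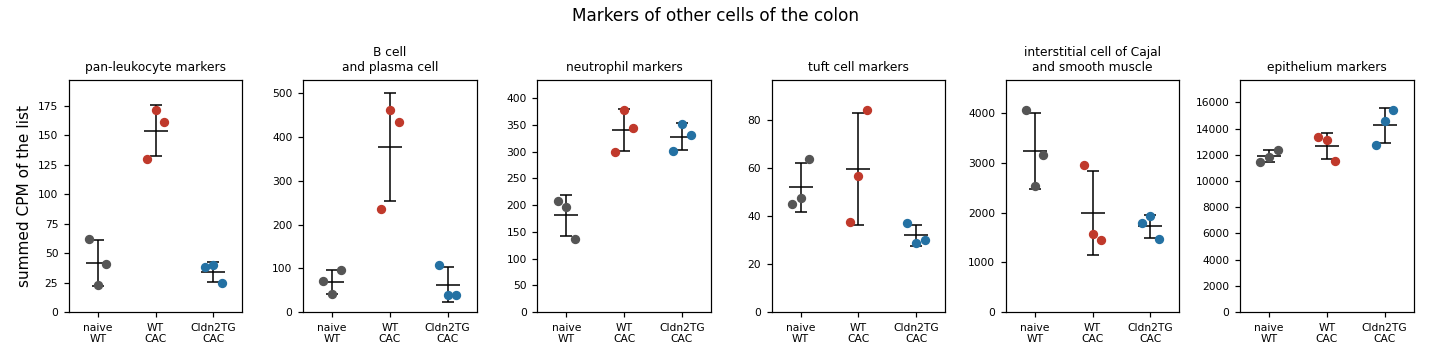
Summed CPM of 6 lists of markers of other colon cells in each mouse (points), with the mean and SD of each group of 3 (bars). Ly6g makes up most of the neutrophil sum. Its means are 180, 314 and 328 CPM by group, beside 181, 340 and 328 for the list. Pan-leukocyte markers lie at 130 to 171 CPM in WT CAC mice and at 22.8 to 61.6 CPM in all others, while the list of interstitial cells of Cajal and smooth muscle is lowest in mean in Cldn2TG CAC mice.

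The genes most like each member over the 9 mice are given as a description, by Pearson's r of log2 CPM among 13887 genes with at least 1 CPM. Mice of a group share their treatment. Mcpt1 was most like Sbspon (0.993), Lgr6 (0.991) and Nxpe3 (0.985), and Mcpt2 most like Fam89a (0.996), R3hdml (0.995) and Tcf7 (0.995). Lgr6 was at 0.0502 to 0.149 CPM in naive WT, 2.08 to 14.5 in WT CAC and 0 to 0.0739 in Cldn2TG CAC mice. Kit was most like Sema5a (0.985), Bche (0.984) and Decr2 (0.98), with Sema5a at 84.4 to 117, 31.8 to 42.8 and 65.3 to 86.2 CPM by group. Cma1 was most like Lsm7 (0.94), Rex1bd (0.936) and Cbr4 (0.931), and Siglecf most like Tstd2 (0.924), Lgalsl (0.922) and Enpp3 (0.912). The members themselves were left out of the genes compared, so Mcpt1 and Mcpt2 could not be matched with each other. Genes with a mean under 1 CPM over the 9 mice, several of those listed above, were left out too. Of the other mast cell and eosinophil genes that remained, none was among the 3 nearest genes of a member.

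Genes beside Mcpt1 and Mcpt2 on chromosome 14 were also read, chosen after their values were seen. From Cma1 to Gzmb lie 15 serine protease genes of the mast cell protease and granzyme families over 321 kb, of which 3 had no count in any mouse. Between Mcpt1 and Mcpt2 lies Mcpt9, with 2, 10 and 0 counts by group, and beside them Mcpt4, the other connective tissue chymase, had 4, 29 and 2. At the far end of the cluster, Gzmc, a granzyme of cytotoxic lymphocytes, had 0, 85 and 1 counts by group, of which WT CAC mice had 5, 21 and 59. Gzmb was at 0.0995 to 1.13 CPM in naive WT, 1.12 to 7.63 in WT CAC and 0.482 to 0.861 in Cldn2TG CAC mice. Its fall in Cldn2TG CAC against WT CAC was called (-2.93 ± 0.69, adjusted p = 0.0357, edgeR), but the difference of WT CAC against naive WT was not (3.46 ± 1.02, adjusted p = 0.0627, edgeR). In both comparisons Gzmb passed the filter through WT CAC mice alone. Cma1 at the near end was thus the 1 gene of the cluster above 5 CPM in all 9 mice.

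**Figure D5:**
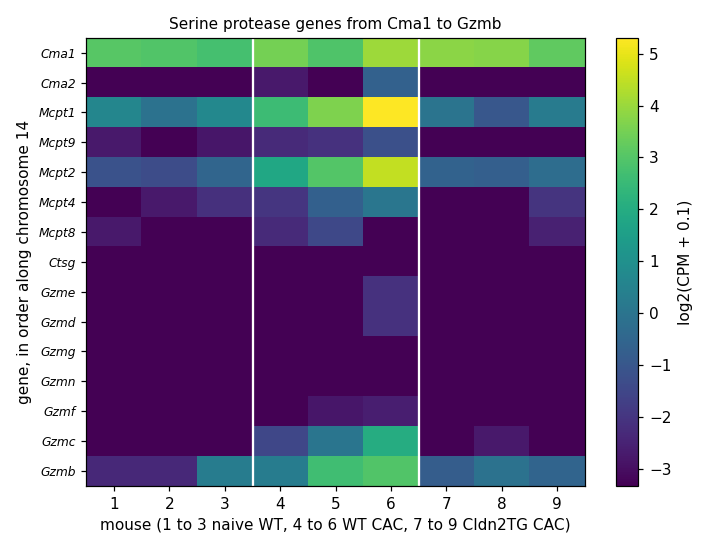
Level of the 15 serine protease genes from Cma1 to Gzmb, in their order along chromosome 14 (rows, not to scale), in the 9 mice (columns), as log2(CPM + 0.1). Cma1 is high in every mouse, Mcpt1 and Mcpt2 are brightest in the WT CAC mice, and the genes between Mcpt8 and Gzmf are at or near 0 throughout.

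Promoters of Mcpt1 and Il5ra, which rose in WT CAC mice, and of Cpa3, which had too few counts for the filter, are shown with matches to GATAA (capitals, GATAA or its reverse complement TTATC), the motif read by GATA factors such as GATA-1 and GATA-2 of mast cells and eosinophils. They are the 250 bases before the start of transcription from RefSeq (GRCm38.p6), 5′ to 3′ on the strand of the gene, for Mcpt1 (chr14:56017714-56017963), Cpa3 (chr3:20242182-20242431) and Il5ra (chr6:106749038-106749287), with Cma1 (chr14:55944676-55944925), which did not pass the test in WT CAC mice, beside them.
Mcpt1: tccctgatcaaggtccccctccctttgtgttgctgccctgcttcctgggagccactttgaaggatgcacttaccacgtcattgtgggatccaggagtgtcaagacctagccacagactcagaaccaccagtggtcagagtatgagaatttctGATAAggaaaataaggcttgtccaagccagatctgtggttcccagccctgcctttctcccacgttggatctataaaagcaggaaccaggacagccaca
Cpa3: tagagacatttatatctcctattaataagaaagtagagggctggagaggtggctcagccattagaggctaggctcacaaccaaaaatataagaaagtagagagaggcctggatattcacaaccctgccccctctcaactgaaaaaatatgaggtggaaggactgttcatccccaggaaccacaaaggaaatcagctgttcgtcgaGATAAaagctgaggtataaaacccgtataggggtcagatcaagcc
Il5ra: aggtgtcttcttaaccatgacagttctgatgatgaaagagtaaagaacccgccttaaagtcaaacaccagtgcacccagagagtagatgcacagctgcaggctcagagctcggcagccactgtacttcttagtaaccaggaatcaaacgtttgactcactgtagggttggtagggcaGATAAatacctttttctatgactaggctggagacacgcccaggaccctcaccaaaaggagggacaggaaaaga
Cma1: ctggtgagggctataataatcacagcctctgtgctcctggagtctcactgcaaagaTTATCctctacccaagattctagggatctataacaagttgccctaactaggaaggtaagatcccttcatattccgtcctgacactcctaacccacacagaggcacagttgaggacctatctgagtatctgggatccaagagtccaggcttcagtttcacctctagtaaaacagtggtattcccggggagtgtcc
Each held 1 match, at 98 bases before the start in Mcpt1, 45 in Cpa3, 73 in Il5ra and 194 in Cma1. Sequences were at hand for 8 of the 10 members, and 5 of these held the motif, Ccr3 among them, while Kit, Siglecf and Epx held none. Over all 32851 promoters of this length, 22.6% held at least 1 match. A match is a run of letters, and binding was not measured. The GATA factor gene Gata2 was at 1.81 CPM on average in WT CAC and 0.795 in naive WT mice (1.20 ± 0.34 on the log2 scale, adjusted p = 0.0505, edgeR) and was not called.

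For the whole series, claudin-2 RNA was read as a check of the labels. Cldn2 was at 232 ± 35.6 CPM in naive WT, 129 ± 9.34 in WT CAC and 226 ± 22.4 in Cldn2TG CAC mice (SD, n = 3) and was 0.78 ± 0.12 higher on the log2 scale in Cldn2TG CAC than in WT CAC mice (adjusted p = 0.0103, edgeR). Against naive WT the difference was -0.03 ± 0.12 (adjusted p = 0.897, edgeR), so Cldn2 does not tell these 2 groups apart. The counts do not separate transcripts of the transgene from those of the mouse gene. Naive WT mouse 1 stood apart in sex-linked genes, with 214 CPM of Xist and 0.498 CPM in 4 Y-linked genes together, against at most 0.203 and at least 146 CPM in the other 8 mice, and the calls of the members without it are given above. Of 24 calls among the lists of other genes in WT CAC against naive WT, 11 were kept without it, and of 10 in Cldn2TG CAC against naive WT, 3 were. Leaving out another mouse kept 4 to 24 of the 24 and 3 to 5 of the 10, and of 21 calls in Cldn2TG CAC against WT CAC 4 to 20 were kept. The 2 lanes of a library were summed (chi-square between them 0.995 to 1.06 for each degree of freedom). Lane 2 was shallower in mice 6, 7 and 9, with 4023472, 5757674 and 4811928 counts. Their lane 1 held 10119239, 9143133 and 10060059 counts.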

How the data were processed

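Colon RNA of 9 mice was sequenced in 2 lanes a library on an Illumina NovaSeq6000. The deposited table holds whole-number read counts for 47729 genes in 18 lane columns, which the authors made with featureCounts of the Subread package. The paper's methods name TopHat2 as the aligner, the submitters' processing notes name HISAT2 and GRCm38, and versions, settings, strand and read length are not given in the sources used here. The deposited gene length was used for RPKM. Groups came from the genotype and treatment labels. The members and lists of genes were chosen with earlier results of these data known.

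Lanes were summed to 14142711 to 22262546 counts a mouse. Symbols were matched for 47224 identifiers, and 505 had none. For each comparison the 6 mice were fitted alone in edgeR 4.0.16 (R 4.3.3) with TMM factors, filterByExpr (at least 10 counts, 15 in total) and a robust quasi-likelihood fit with its two-sided test. Benjamini-Hochberg adjustment covered every gene tested. Genes with an adjusted p under 0.05 are called. The SE of a log2 fold change was derived from the test statistic. P-values measure the spread between these mice, and the labels do not say whether mice of a group shared a cage or litter. CPM and RPKM use TMM factors over the 9 mice. Ratios of summed counts have exact 95% intervals that cover counting error only. The genes named were the members, the 2 most counted genes of each other list, every called gene of the eosinophil, mast cell and ligand lists, the 3 genes most correlated with a member of at least 1 CPM, and Cldn2. Other genes were named after their values were seen, among them the called markers of other cell types that were not the most counted (Trpm5, Mzb1, Cd79a, Etv1, Myh11, Acta2 and Cldn7), Ano1, genes at or near 0, Ccl11 and Gata2. After the data were seen, the calls of the lists on leaving out each mouse and the tuft cell sum without Avil were added. Coding sequences and transcripts came from GENCODE M21 and promoters from RefSeq. Alternatives were DESeq2 1.42.0 (Wald test), other normalizations (DESeq2 size factors, upper quartile, library size only), no filter, a minimum of 10 counts in each mouse, a joint fit over all 9 mice, single lanes and the omission of each mouse. The fits were tested on simulated counts. Other steps used Python 3.11.15, pandas 2.3.3, scipy 1.17.1 and matplotlib 3.10.9.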

Additional observations from a re-analysis of the deposited data

How the results depend on the processing

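The rise of Mcpt1, Mcpt2 and Il5ra in WT CAC mice and their fall in Cldn2TG CAC mice kept their direction under every alternative that could test them, and the fall of Kit in WT CAC kept its call under all. Mcpt1 lost its call without a filter in both comparisons with WT CAC, and Mcpt2 in the second. On leaving out each mouse in turn, calls over all genes ran from 135 to 4080 in WT CAC against naive WT, from 58 to 2894 in Cldn2TG CAC against WT CAC and from 525 to 1383 in Cldn2TG CAC against naive WT. Eosinophil members called ran from 0 to 1 in WT CAC against naive WT and from 0 to 1 in Cldn2TG CAC against WT CAC, and mast cell members from 1 to 4, from 0 to 4 and from 0 to 1 in the 3 comparisons. With at least 10 counts in every mouse, Il5ra was not tested, which left 0 eosinophil members called in both comparisons with WT CAC. That filter also left 908 genes and 1 mast cell member in Cldn2TG CAC against WT CAC and 0 mast cell members in Cldn2TG CAC against naive WT. Without a filter, 1 mast cell member was called in Cldn2TG CAC against WT CAC, and 2567 genes and 2 mast cell members in Cldn2TG CAC against naive WT. With all 9 mice in the fit, 2136 genes were called in Cldn2TG CAC against WT CAC, and 445 genes and 0 mast cell members in Cldn2TG CAC against naive WT. Mast cell members called in Cldn2TG CAC against naive WT were also 0 with library size only, in lane 1 and in lane 2, and in Cldn2TG CAC against WT CAC no eosinophil member was called in lane 2 (0), where Il5ra was not tested. Lane 2 was shallower in mice 6, 7 and 9 than in the other mice. The cause was not tested for the settings that do not change the genes or mice fitted.

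Directions turned for members that were never called there. Siglecf differed by 0.26 in WT CAC against naive WT in lane 2 and by -0.66 to 0.07 on leaving out a mouse, and in Cldn2TG CAC against WT CAC by 0.22 in lane 1 and by -0.41 to 0.30 on leaving out a mouse. Cma1 in Cldn2TG CAC against WT CAC differed by -0.07 with library size only, -0.01 with upper-quartile factors, -0.05 in lane 1 and -0.22 to 0.36 on leaving out a mouse. With all mice, Ccr3, Epx, Prg2 and Cpa3 had too few counts for the filter, and Cpa3, called on leaving out mouse 4, passed it there through WT CAC mice alone. No paired analysis was possible because the groups share no replicate numbers.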
